A study of Mus musculus with 3 samples.

Results

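The Kruppel-like factors described here are the products of 10 mouse genes, Klf2, Klf3, Klf4, Klf6, Klf7, Klf9, Klf10, Klf11, Klf12 and Klf13, found by symbol among 55536 genes in the deposited tables. They were measured by sequencing of polyadenylated RNA in naive CD4+ T cells that carry the αβ T cell receptor. The labels call the cells thymus-derived and primary, taken from 1 adult male mouse of strain B6.SJL-Ptprca Pepcb/BoyJ at 5 months of age, with no treatment named. Totals of expected counts, the authors' estimated reads per gene, ran between 14837442 and 18207118 per library. B6.SJL-Ptprca Pepcb/BoyJ is a C57BL/6-type line with a variant Ptprc allele, whose product carries the CD45.1 epitope, and it serves as a wild type donor strain. There was 1 group of 3 technical libraries from 1 biological replicate, so each SD and p-value below measures only the spread between libraries of the same cells, and no animals or conditions could be compared. The technical replicate numbers in the labels name the libraries.

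Kruppel-like factors are transcription factors whose carboxy-terminal zinc fingers bind CACCC and GC-rich elements in promoters and enhancers, while their amino-terminal parts differ and recruit activators or repressors. They are usually sorted into a mostly activating subgroup (Klf2, Klf4, Klf6 and Klf7 here), a subgroup that binds the CtBP corepressors (Klf3 and Klf12) and a subgroup that binds the Sin3 corepressors (Klf9, Klf10, Klf11 and Klf13). In T cells the family is best known for Klf2, which keeps naive cells quiescent and drives the receptors with which they leave the thymus and enter lymph nodes.

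Promoters are shown for 4 of these genes. Klf2 is shown because myocyte enhancer factor 2 (MEF2) and FOXO factors are known to act on it, Klf9 because, of the 3 Sin3-binding genes searched (Klf9, Klf11 and Klf13), it alone held a match to the FOXO site, and Klf6 and Klf4 as a high and a low gene of the activating subgroup. Each sequence runs from 250 bases before to 50 bases after the RefSeq start of the gene (assembly GRCm38.p6), 5′ to 3′ on the gene's own strand. The Klf2 window is chr8:72318812-72319111 on the plus strand, the Klf9 window chr19:23140976-23141275 on the plus strand, the Klf6 window chr13:5861239-5861538 on the plus strand and the Klf4 window chr4:55532426-55532725 on the minus strand. Capitals mark matches, on either strand, to the CACCC box (CACCC), the GC box (GGGCGG), the FOXO site (GTAAACA), the MEF2 site, the TATA box (TATAAA) and the CCAAT box (CCAAT).
Klf2: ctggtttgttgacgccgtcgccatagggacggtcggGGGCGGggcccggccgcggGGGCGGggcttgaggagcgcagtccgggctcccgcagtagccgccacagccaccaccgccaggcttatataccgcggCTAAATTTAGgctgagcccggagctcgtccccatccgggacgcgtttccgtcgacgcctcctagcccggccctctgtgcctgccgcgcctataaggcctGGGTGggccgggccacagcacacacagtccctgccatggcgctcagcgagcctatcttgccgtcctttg
Klf9: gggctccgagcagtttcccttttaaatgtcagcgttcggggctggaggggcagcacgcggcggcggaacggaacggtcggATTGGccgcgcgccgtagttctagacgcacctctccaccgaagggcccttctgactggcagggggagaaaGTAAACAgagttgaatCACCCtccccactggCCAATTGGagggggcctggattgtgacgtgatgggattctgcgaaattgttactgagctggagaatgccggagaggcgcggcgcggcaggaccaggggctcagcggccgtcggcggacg
Klf6: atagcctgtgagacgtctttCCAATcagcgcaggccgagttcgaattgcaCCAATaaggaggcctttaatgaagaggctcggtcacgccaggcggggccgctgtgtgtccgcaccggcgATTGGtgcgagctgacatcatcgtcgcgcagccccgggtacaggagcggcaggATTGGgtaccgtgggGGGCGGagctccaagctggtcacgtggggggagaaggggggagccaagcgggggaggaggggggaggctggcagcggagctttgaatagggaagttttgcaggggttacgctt
Klf4: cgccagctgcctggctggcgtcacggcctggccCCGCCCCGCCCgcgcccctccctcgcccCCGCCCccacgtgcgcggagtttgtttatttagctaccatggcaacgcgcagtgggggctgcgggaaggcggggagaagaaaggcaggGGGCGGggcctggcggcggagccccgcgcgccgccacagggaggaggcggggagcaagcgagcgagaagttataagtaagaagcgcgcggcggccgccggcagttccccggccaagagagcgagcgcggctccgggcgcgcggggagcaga

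RefSeq promoters were matched for 9 of the 10 genes, all but Klf10. Among those 9, a MEF2 match was found in the Klf2 window alone, with its first base at -118 relative to the start of the gene, and a FOXO match in the Klf9 window alone, at -100. Over all 32851 mouse promoters of the same length, 3.19% held a MEF2 match and 3.65% a FOXO match. The Klf6 window held 4 CCAAT boxes, against 3 for Klf9 and 2 each for Klf11 and Klf13. The Klf4 window held 4 GC boxes, of which a pair overlap by a base. GC boxes numbered 6 in Klf3, 4 in Klf11, 3 in Klf13, 2 in Klf2 and 1 each in Klf6 and Klf7. Over all promoters, 37.4% had at least 1 CCAAT box and 35.7% at least 1 GC box, and numbers of copies were not compared. The CACCC box, the element that the family itself binds, was found in 57.5% of all promoters, and Klf3 held 5 copies, Klf7 3 copies and Klf2, Klf9, Klf12 and Klf13 1 copy each. A TATA box was found in the Klf12 window, as in 13.6% of all promoters. The 9 windows were rich in G and C, with a median of 69.3% against 52.7% over all promoters, and held a median of 29 CG dinucleotides against 7. Klf12 had the lowest values, 45.7% G and C and 6 CG dinucleotides, but its window lies at the start of Klf12-201, which had 0 counts, 134883 bases inside the start of the gene in GENCODE, while Klf11 had the highest values, 77.7% and 42. A match describes letters in the window and does not show binding.

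Transcript levels of the 10 genes covered more than 3 orders of magnitude, with Klf2, Klf6, Klf3 and Klf13 at the top and Klf12 at the bottom. Levels between genes are given in TPM, the deposited transcript abundance scaled for length. Of the 10 genes, 9 reached 1 TPM in every library, here called detected, against 44.6% of the 22028 annotated protein-coding genes. The median of the 10 gene levels was 43.5 TPM, against 0.357 TPM over all protein-coding genes and 31.4 TPM over the detected ones. These shares and medians do not test the family, because the 10 genes were chosen with earlier results of these data known. Of the 7 other Klf genes 1 was detected, and their median was 0.210 TPM. Together the 10 genes held 0.307% ± 0.0272 of all TPM (SD, n = 3). RNA was measured in bulk, so that a low level in all cells and a high level in a few cells cannot be told apart, nor can fewer cells of a type and less RNA per cell.

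In the activating subgroup, Klf2 (chromosome 8, 72319033 to 72321656, GRCm38) stood at 1051, 1002 and 1065 TPM in libraries 1, 2 and 3, a mean of 1039.6 ± 33.1. It was the highest of the 10 genes in each library, ranking at percentile 99.6 of protein-coding genes. Klf6 (chromosome 13, 5861482 to 5870394), a widely expressed activator known as a tumour suppressor, had 899, 712 and 916 TPM, a mean of 842 ± 113. Klf7 (chromosome 1, 64029447 to 64122282), the closest relative of Klf6 and known for its part in the growth of neurons, had 78.0, 60.6 and 66.6 TPM, a mean of 68.4 ± 8.83. Library 2 held the lowest TPM of all 3 genes. Klf4 (chromosome 4, 55527143 to 55532466), a factor of pluripotent cells and epithelia that also restrains the division of CD8+ T cells, had 1.72, 2.15 and 1.18 TPM. These levels were just above the threshold for detection and rest on 44, 63 and 36 expected counts. Pooled over the libraries, the Klf4 level had an exact Poisson 95% interval of 1.42 to 1.98 TPM, and intervals of this kind cover counting error only.

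In the CtBP-binding subgroup, Klf3 was abundant and Klf12 was barely measured. Klf3 (chromosome 5, 64803388 to 64832901), a repressor needed for normal B cell development and known to oppose activating family members on shared elements, had 630.5, 538 and 629 TPM, a mean of 599 ± 53.0. Its level was lower in library 2, while libraries 1 and 3 were alike. Klf12 (chromosome 14, 99870632 to 100284679), a repressor first described at the promoter of the AP-2α gene, had 0.17, 0.36 and 0.55 TPM. It did not reach 1 TPM in any library and rests on 2, 4 and 6 expected counts, for a pooled interval of 0.186 to 0.629 TPM. The deposited posterior mean estimates, which raise genes with few reads, put Klf12 at 1.19, 1.13 and 1.36 TPM, so whether it lay below 1 TPM depends on the estimate.

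Of the Sin3-binding subgroup, Klf13 was far above the other 3 genes. Klf13 (chromosome 7, 63886351 to 63938915), which activates the chemokine gene Ccl5 late after T cell activation, had 496, 396 and 511 TPM, a mean of 468 ± 62.2. Klf11 (chromosome 12, 24651274 to 24662789), a factor induced by transforming growth factor β (TGF-β), had 19.7, 15.7 and 20.2 TPM, a mean of 18.5 ± 2.45. Both were lowest in library 2. Klf10 (chromosome 15, 38291463 to 38300706), the other TGF-β-induced factor of the family, had 14.6, 14.3 and 17.5 TPM, a mean of 15.5 ± 1.79. Klf9 (chromosome 19, 23141226 to 23168134), which responds to glucocorticoids and thyroid hormone, had 11.8, 10.5 and 13.5 TPM, a mean of 11.9 ± 1.51. Both were highest in library 3, and every Klf10 value lay above every Klf9 value.

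**Figure D1:**
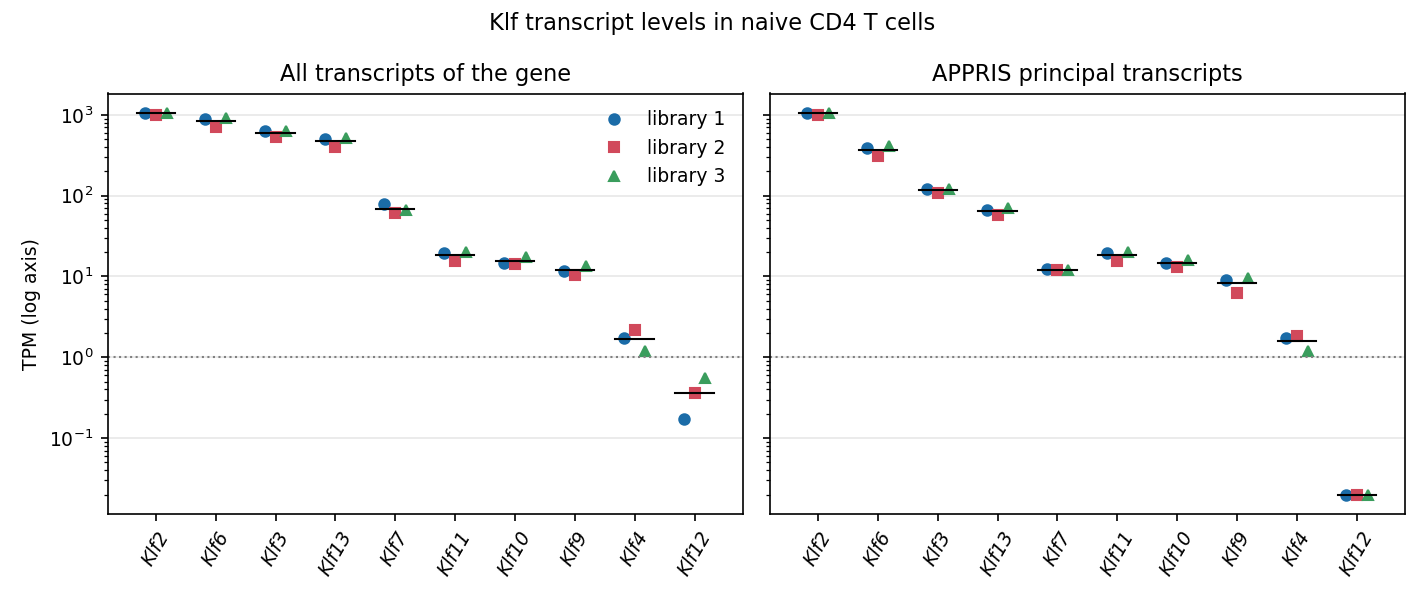
TPM (log axis) of the 10 genes in each library, over all transcripts of the gene (left) and over APPRIS principal transcripts only (right), with points for the libraries, black bars for their mean and a dotted line at 1 TPM. Klf2 leads in both panels with a mean of 1039.6 TPM, and Klf7, 5th of the 10 in the left panel at 68.4 TPM, lies below Klf11 and Klf10 in the right panel at 12.1 TPM.

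The order of the 10 levels was Klf2, Klf6, Klf3, Klf13, Klf7, Klf11, Klf10, Klf9, Klf4 and Klf12. For 8 of the 9 neighbouring pairs in this order the lowest library of the first gene lay above the highest library of the second. The exception was Klf11 over Klf10, which overlapped although Klf11 was the higher in 3 of 3 libraries, with a log2 ratio of TPM + 0.1 of 0.26 ± 0.15. The narrowest pair without overlap was Klf2 over Klf6, at a log2 ratio of 0.31 ± 0.16 and a pooled ratio of 1.24 (Clopper-Pearson 95% interval 1.23 to 1.26). Its log2 ratios in libraries 1, 2 and 3 were 0.225, 0.494 and 0.218. The intervals of pooled ratios given here cover counting error only and are narrower than the spread between libraries. Without length correction the order of Klf2 and Klf6 turned round in total, Klf6 having more expected counts (57974) than the shorter Klf2 (55866). The libraries differed in this. Klf6 had more in libraries 1 (17739 against 16225) and 3 (22000 against 19548), and Klf2 in library 2 (20093 against 18235). The wide steps of the order came at Klf13 over Klf7 (pooled ratio 6.86, interval 6.65 to 7.09) and at Klf9 over Klf4 (pooled ratio 7.12, interval 5.98 to 8.52). The log2 ratio of Klf13 over Klf7, 2.77 in TPM, was 1.88 in expected counts with no length correction and 1.22 in the older counts. These steps set Klf2, Klf6, Klf3 and Klf13 above Klf7, Klf11, Klf10 and Klf9, with Klf4 and Klf12 below both sets.

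The whole Klf family of 17 genes summed to 3221, 2767 and 3258 TPM in the 3 libraries, of which the 4 highest genes held 95.7% ± 0.139 and Klf2 alone 33.9% ± 2.05. By subgroup, 63.4% ± 0.721 of the family's TPM came from the activating genes, 19.5% ± 0.140 from the CtBP-binding genes and 17.1% ± 0.746 from the Sin3-binding genes. Among the 7 other family members only Klf16, a Sin3-binding repressor, was detected, at 15.9, 13.8 and 15.5 TPM. Klf8, the third CtBP-binding gene, averaged 1.06 ± 0.530 TPM, and the erythroid activator Klf1 and the epithelial activator Klf5 averaged 0.267 ± 0.122 and 0.210 ± 0.0400 TPM.

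At the transcript level the 10 genes differed in how much of their RNA was assigned to the protein-coding transcript that APPRIS marks as principal. The annotation gives them 41 transcripts, of which 20 held at least 10% of their gene's TPM on average, and transcript shares below are the deposited isoform percent, the share of the gene's TPM. Klf2 has a single annotated transcript of 1847 bases with 354 codons. Klf11-201 took 100% in each library, Klf10-201 took 100%, 91.3% and 90.8%, and Klf4-201 took 100%, 86.0% and 100%. With posterior mean isoform percent the share was 89.4% for Klf11-201, 64.7% for Klf10-201 and 67.3% for Klf4-201. Klf10-201 has 3 bases that no other Klf10 transcript contains.

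For Klf6, Klf3, Klf13 and Klf7 the principal transcripts held less than the other transcripts together by TPM. Klf6-201, the principal transcript of 4225 bases, had an isoform percent of 43.2, 43.6 and 45, the retained-intron transcript Klf6-202 of 799 bases 35.3, 39.2 and 34.8, and Klf6-203, a target of nonsense-mediated decay, 21.5, 17.2 and 20.3. By expected counts, which are not scaled for length, Klf6-201 held 79.2% of the gene. The leading Klf3 transcript was Klf3-208, a retained-intron transcript of 1026 bases, at 40.4, 40.0 and 41.0 percent. By expected counts it held 21.1% of the gene, after Klf3-201 with 35% and the retained-intron transcript Klf3-203 with 27.3%. Both principal transcripts of Klf3, which encode the same 344 codons, held together 19.5% ± 0.300 of the gene's TPM and 40.4% ± 0.388 of its expected counts. Retained-intron transcripts as a class held 54.0% ± 0.153 of the TPM and 49.3% ± 0.442 of the expected counts of Klf3.

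Klf13 and Klf7 were led by coding transcripts other than the principal one. Klf13-204, of 487 bases, had an isoform percent of 86.2, 84.6 and 85.6 and held 29.7% of the gene's expected counts. Its 52 annotated codons all lie in coding sequence that the principal transcript Klf13-201 also contains, and Klf13-201, of 6396 bases and 289 codons, held 13.9% ± 0.598 of the TPM and 69.8% ± 1.01 of the expected counts. Klf7-201, with 285 codons, had 61.2, 58.1 and 66.2 percent, and the principal Klf7-202, with 301 codons and 7662 bases, held 17.9% ± 1.89 of the TPM and 57.9% ± 3.23 of the expected counts. Klf9-201, the principal transcript of Klf9, held 76.0, 60.1 and 70.4 percent, the rest going to the noncoding Klf9-202. Of the few Klf12 counts, the noncoding Klf12-203 received 1, 2 and 3.

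The split between transcripts is an estimate and rests on few bases for the short transcripts. Klf13-204, Klf3-208 and Klf3-206 have 0 bases that no other transcript of their gene contains, and Klf6-202 has 98, whereas Klf13-201 has 5981 and Klf6-201 has 3178. Counting principal transcripts alone, the levels were 1039.6 ± 33.1 TPM for Klf2, 370.1 ± 53.1 for Klf6, 116 ± 8.77 for Klf3 and 64.6 ± 6.79 for Klf13, followed by Klf11 at 18.5, Klf10 at 14.5, Klf7 at 12.1 and Klf9 at 8.26. On this measure, chosen after seeing the data, the first 4 genes kept their order and Klf7 came after Klf11 and Klf10, with a log2 ratio of Klf7 over Klf11 of -0.60 in place of 1.88. The log2 ratio of Klf2 over Klf6 became 1.5 ± 0.17, and the activating subgroup held 85.7% of the family.

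**Figure D2:**
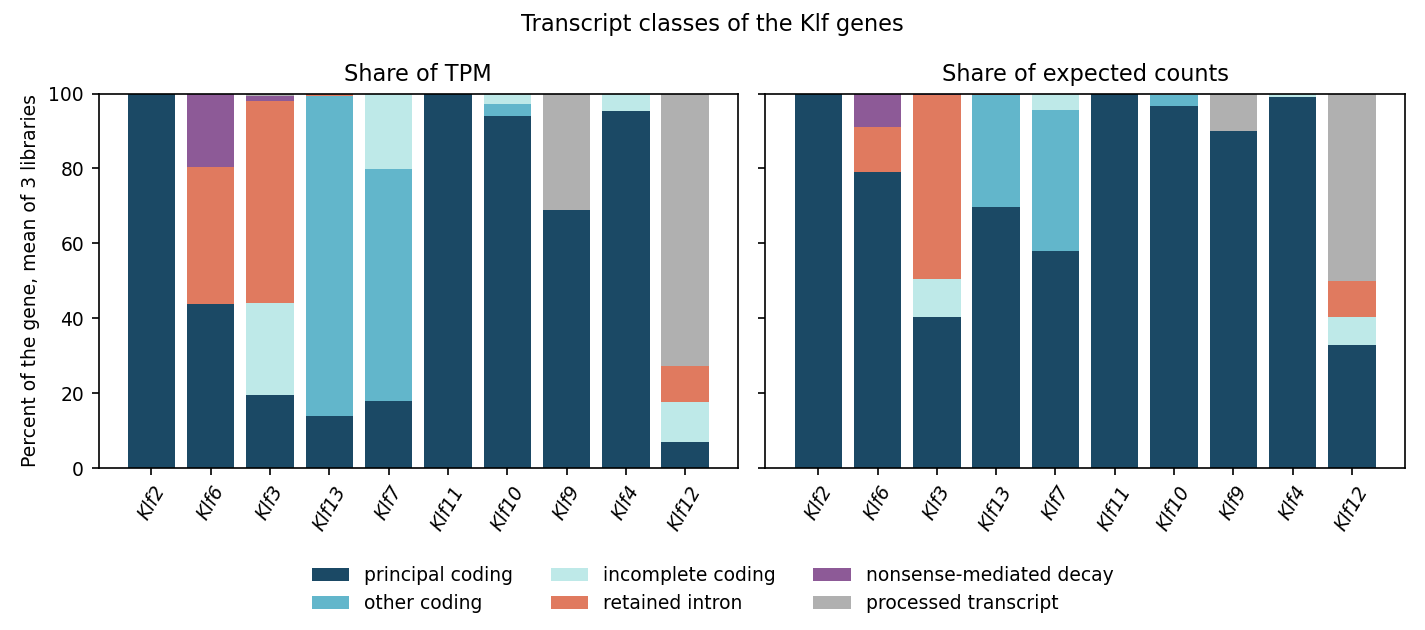
Share of each gene, in percent and as the mean of 3 libraries, that was assigned to each annotated transcript class, by TPM (left) and by expected counts (right). Principal coding transcripts hold 100% of Klf2 and Klf11 in both panels, 43.9% and 79.2% of Klf6, and 13.9% and 69.8% of Klf13.

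Other annotated genes overlap some of the 10. C230096K16Rik lies within Klf3 on the same strand over 1722 bases and averaged 69.3 TPM, and Gm20033 overlaps Klf3 on the opposite strand over 730 bases and averaged 50.6 TPM. Reads of these genes and of Klf3 are divided by the authors' estimate, and whether counting used strand is not given in the sources used here, so the Klf3 level is uncertain to that extent. The genes that overlap Klf13 averaged 2.65 TPM (Gm27252) and 0.390 TPM (E030018B13Rik), both on the opposite strand, and the 3 that overlap Klf7, the 1 in Klf9 and the 2 in Klf12 had 0 counts.

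Most of the 10 genes differed between the technical libraries by more than counting noise, and most of those were lowest in library 2. Differences were tested on rounded expected counts, scaled by TMM to CPM, the counts relative to library size, with a chi-square test of homogeneity adjusted by Benjamini-Hochberg over the 13090 genes that averaged 10 counts or more. Over all of these genes 40.0% were called at an adjusted p under 0.05, and 17.4% were called with library 2 lowest. Klf12 was below the count minimum, 7 of the other 9 were called, and 6 of these were lowest in library 2. Power grows with counts, and 4 of the 5 Kruppel-like factor genes at least as abundant in CPM as Klf7 were called, against 78.7% of all genes in that range. Of those 5, Klf6, Klf3 and Klf13 were called with library 2 lowest, against 41.4% of all genes in that range. In any direction the calls of the abundant members were thus close to that background, while 5 genes are too few to compare the direction. No share among genes of like abundance was computed for Klf11, Klf10 and Klf9. The coefficient of variation between libraries had a median of 9.07% over the 9 genes and 9.51% over all genes tested. Over genes at least as abundant as Klf7 the median was 6.52%. The 5 Kruppel-like factor genes in that range had 10.2% (Klf6), 1.77% (Klf2), 4.33% (Klf3), 7.37% (Klf13) and 3.78% (Klf7).

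Klf6 had 1191, 1024 and 1251 CPM in libraries 1, 2 and 3, a ratio of 1.22 between the highest and the lowest library (chi-square adjusted p = 1.15e-90). Klf2 had 1089, 1128 and 1112 CPM, with a ratio of 1.04 (chi-square adjusted p = 0.0116). Klf2 was thus called at a coefficient of variation of 1.77%, and it was the called gene that was not lowest in library 2. Klf9 had 24.6, 20.4 and 27.0 CPM, with a ratio of 1.33 (chi-square adjusted p = 0.00103). Klf3 and Klf13 were lowest in library 2 as well, with adjusted p of 3.35e-09 and 3.57e-14 by the chi-square test, and so were Klf11 (0.00573) and Klf10 (0.00616). Klf7 and Klf4 did not pass, with adjusted p of 0.211 and 0.0705, although Klf4 had the widest ratio, 1.73, at 2.95, 3.54 and 2.05 CPM. Without library 2 the call stayed for 3 of the 9 genes, Klf6, Klf13 and Klf10, and 1903 genes of all tested were called in place of 5238. The share of all genes called was not computed for this run, so these counts cannot be compared. Klf2 also lost its call without library 1 (chi-square adjusted p = 0.305) and Klf10 without library 3 (0.858), while Klf4 gained one without library 1 (0.0250).

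In TMM-scaled CPM, library 2 was set against the mean of libraries 1 and 3. Its median log2 difference was -0.16 over the 9 genes, 0.01 over all genes tested and -0.04 over genes at least as abundant as Klf7. Library 2 also had more ribosomal RNA, 1.08% of TPM against 0.299% in library 1 and 0.262% in library 3. Immediate early genes are a list of 11, most of which cells induce within minutes of stimulation. In TPM, a scale not adjusted by TMM, they summed to 6045 in library 1, 4426 in library 2 and 6275 in library 3. On the same scale, 6 T cell marker genes summed to 6026, 5443 and 6311 TPM. The part of these differences in the Kruppel-like factor values was not tested.

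**Figure D3:**
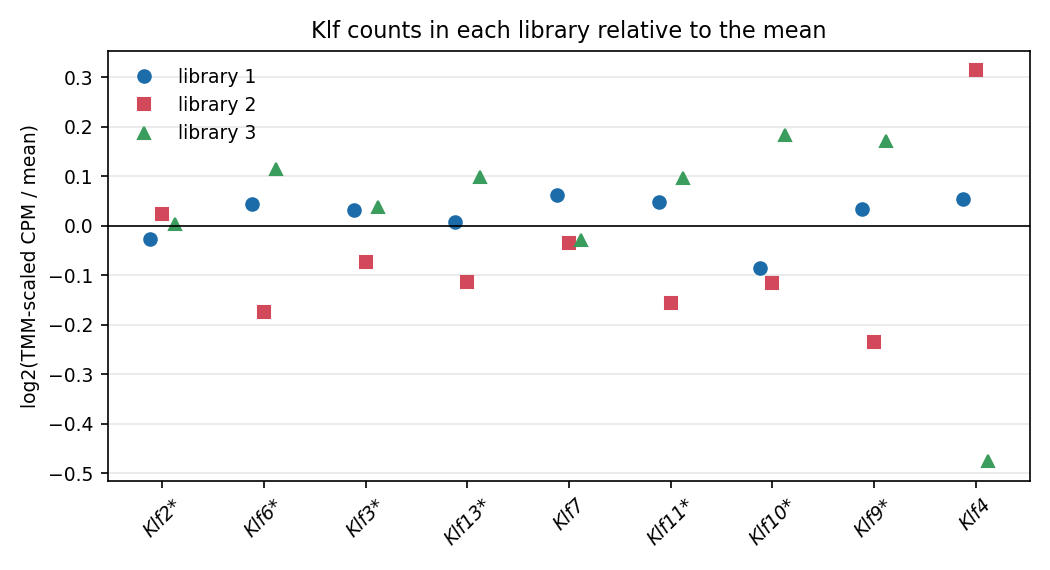
Counts of 9 genes in each library as log2 of TMM-scaled CPM over the gene's mean; an asterisk marks an adjusted p under 0.05. Library 2 is the lowest point for 7 of the 9 genes, against 38.9% of all genes tested and 50.8% of those at least as abundant as Klf7, while Klf2 varies by 1.77% (coefficient of variation) and Klf4, with the fewest counts, is highest in library 2.

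A further table of whole-number counts on the older GENCODE M4 annotation gave much lower values for the most abundant of these genes. Klf2 had 1974, 2008 and 2015 counts there, against 16225, 20093 and 19548 expected counts in the main table, so that the older table held 10.7% of the newer value. Klf6 had 1923, 1910 and 1947 older counts, which is 9.97% of its expected counts, and Klf3 had 1824, 1898 and 1909, which is 16.8%. The 3 genes thus came within a narrow band in the older table. The share was 25.1% for Klf13, 39.8% for Klf7, 43.4% for Klf11, 48.0% for Klf10, 35.1% for Klf9 and 56.6% for Klf4.

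A smaller share at higher counts was seen over all genes. For the 189 genes with 10000 to 30000 expected counts the median share was 14.0%, with quartiles of 6.30% and 25.3%, and for the 4827 genes with 100 to 1000 expected counts it was 55.4%. After TMM scaling of each table, the ratio of the highest to the lowest library was 1.11 in older counts and 1.04 in expected counts for Klf2, and 1.13 and 1.22 for Klf6. With the older counts, the chi-square test called 4 of the 9 genes, Klf2, Klf6, Klf9 and Klf4, against 18.9% of the 10013 genes tested there.

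**Figure D4:**
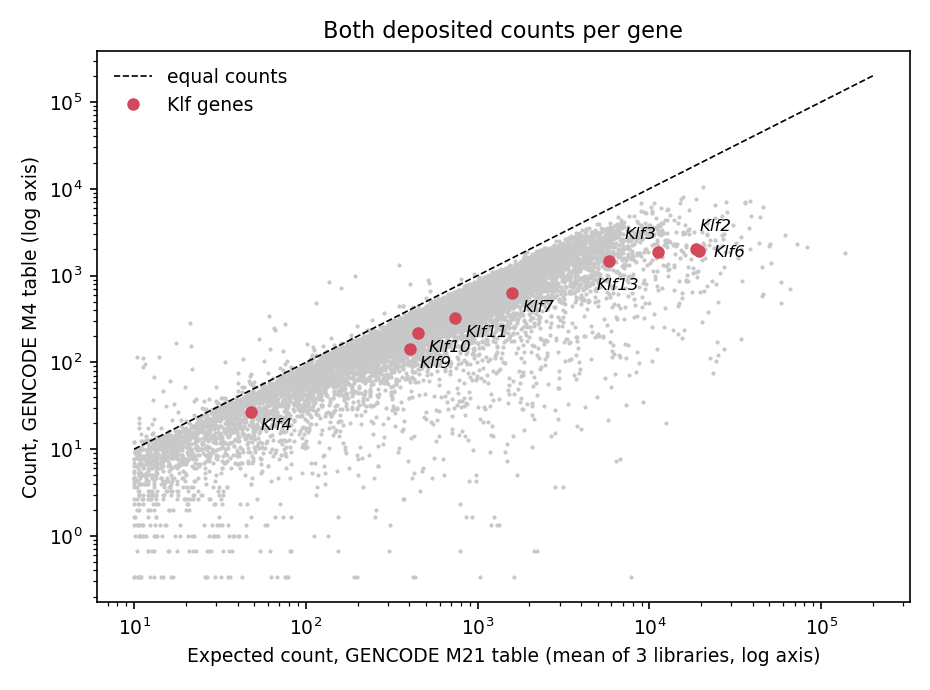
Mean count per gene in the older table (GENCODE M4) against the mean expected count in the main table (GENCODE M21), both on log axes, with grey points for genes that average at least 10 expected counts, red points for the 9 Klf genes among them (Klf12 has too few) and a dashed line where both are equal. Klf4 lies near the line at 56.6% of its expected counts, and Klf2 and Klf6 lie far below it at 10.7% and 9.97%.

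Genes known to act upstream of Klf2 were present with 1 exception. Klf2 is induced by a kinase cascade that ends in Mapk7 (ERK5) and MEF2 factors, and by the FOXO factors. Of this list of 9 genes, 8 were detected. Mef2d was the highest at 230.3 ± 12.8 TPM, followed by the kinase gene Map3k3 at 187 ± 22.8 and Foxo1 at 103 ± 3.89, and Mapk7 had 18.6 TPM. Mef2c averaged 0.1 TPM and was not detected. All 4 genes of the list for turnover of KLF2 protein were detected, with the deubiquitinase gene Usp7 at 151 TPM and the ubiquitin ligase genes Smurf1, Fbxw7 and Wwp1 at 65.5, 19.4 and 9.60 TPM.

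Of 9 T cell trafficking genes, among them known targets of Klf2, 6 were detected. The lymph node homing receptor gene Ccr7 had 2632 ± 111 TPM, and S1pr1, the receptor for exit from thymus and lymph nodes, had 1461 ± 113 TPM. The integrin gene Itgb7 had 779 ± 46.3 TPM, and Cd69, whose product holds S1PR1 inside the cell, had 145.9 ± 15.0 TPM. The inflammatory chemokine receptor gene Cxcr3, which is raised in T cells that lack Klf2 in mice, had 0.320 TPM and was not detected.

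Corepressor genes of both repressing subgroups were present. Ctbp1 stood at 308 ± 29.1 TPM and Ctbp2 at 1.58 TPM, while Fhl3, a cofactor of Klf3, had 0.407 TPM. Of these 3 genes, Ctbp1 reached 1 TPM in every library. All 5 Sin3 complex genes were detected, with Sin3b at 154 TPM, Hdac1 at 153, Hdac2 at 94.1, Sin3a at 29.5 and Sap30 at 10.1. Of 10 genes reported as targets of other family members, 8 were detected, among them the TGF-β pathway gene Smad7, repressed by Klf10 in its known role, at 120.1 TPM. Ccl5, the known target of Klf13, averaged 1.2 TPM and did not reach 1 TPM in every library.

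**Figure D5:**
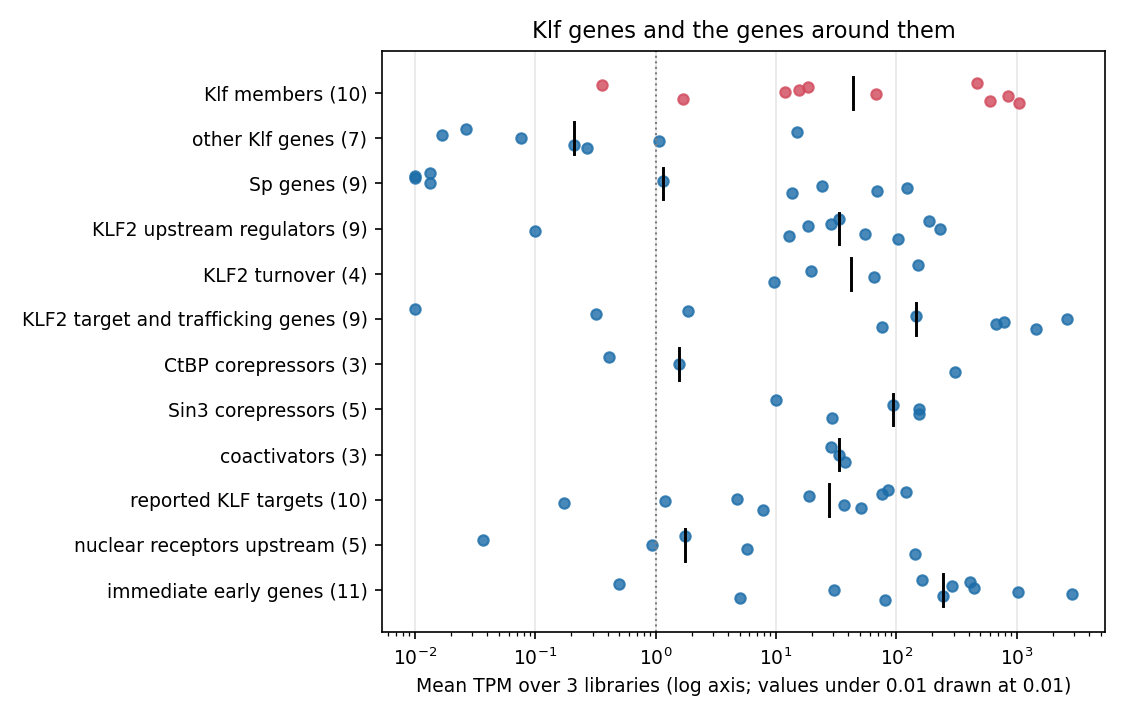
Mean TPM over 3 libraries (log axis) of the 10 Klf genes in red and of the genes in 11 further lists in blue, with the number of genes in brackets, a black bar at each median and a dotted line at 1 TPM. The 10 Klf genes, chosen with earlier results of these data known, have a median of 43.5 TPM. The other Klf genes have 0.210 TPM and the immediate early genes 243 TPM.

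The labelled cell type was checked against its markers. All 6 T cell markers and all 5 markers of naive cells were detected, with summed T cell markers of 5443 to 6311 TPM. Cd8a averaged 0.140 TPM and Cd8b1 17 TPM, and Foxp3, the factor of regulatory T cells, averaged 18.9 TPM. Of effector and memory markers, 2 of 5 were detected, the highest being Cd44 at 19.0 TPM. Markers of other cells were low: 0 of 2 natural killer and 0 of 3 endothelial markers were detected, the endothelial ones summing to 0.0700 to 0.150 TPM, and so were 1 of 4 myeloid markers (Itgam, 1.63 TPM), 1 of 4 B cell markers (Cd79a, 2.06 TPM), 1 of 3 erythroid markers (Hbb-bs, 1.18 TPM) and 1 of 3 epithelial markers (Epcam, 3.30 TPM). Krt5, a keratin gene of the epithelial list, had 0 counts in each library, where a count of 0 allows up to about 3. Klf4 lay in the range of these low markers, and the part of other cells in its level was not tested.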

How the data were processed

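Naive CD4 T cell RNA was sheared (Covaris, size range 100 to 300 per the labels) and sequenced in 3 technical libraries. Per the text deposited with the files, the assembly was mm10, the main tables used GENCODE M21, and an older table of 22457 genes used M4. Aligner, counting tool and strand use are not given in these sources. Expected counts, estimated reads that need not be whole, were deposited per gene and per transcript. TPM were deposited as maximum-likelihood and posterior mean estimates, scaled over all entries of a table. Isoform percent was deposited per transcript. Whole-number counts were deposited on the older annotation. Lengths and the bounds of posterior intervals, held here as signal values, came in the same deposited tables. Library sizes and tests left out entries naming no gene, whose part of the expected counts was 0.247% (library 1), 0.200% (library 2) and 0.325% (library 3).

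The 10 genes were matched by symbol (55450 identifiers had one) and every one is named. Some genes of the lists count in the totals but are not reported here. The genes and all lists were chosen with earlier results of these data known. Expected counts were rounded before tests. Libraries were scaled by TMM (R 4.3.3 with edgeR 4.0.16), using genes that averaged 10 counts or more, and compared by a chi-square test of homogeneity with Benjamini-Hochberg adjustment (scipy 1.17.1). Log2 ratios used TPM + 0.1. Promoters came from the RefSeq table for GRCm38.p6. The test was tested on simulated libraries of 12932 genes drawn with counting noise only. With 50 genes changed per size, 25 were recovered at 1.2-fold and 37 at 1.5-fold. At 2-fold 41 were recovered and at 4-fold 50, beside 9 false calls among 12732 genes left alone. Alternatives were library totals and DESeq2 size factors (1.42.0), other count and TPM minimums, other pseudocounts, posterior mean estimates, levels not corrected for length, TPM rescaled over protein-coding genes, the older counts, leaving out each library and, chosen after seeing the data, principal transcripts alone. Likeness of pattern to other genes was not computed, since 3 libraries of the same cells give no pattern across conditions.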

Additional observations from a re-analysis of the deposited data

How the results depend on the processing

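No paired analysis was possible because the libraries form 1 group. Each of 402 recomputed values was compared with its main value, by the SD between libraries, by fold for counts of genes, or by the p threshold. Most stayed within these limits. Beyond them moved 10 values of the main results and 70 values of single genes, subgroups or lists. The sign turned for 2 log2 ratios, and 11 calls of single genes were lost and 2 gained. The median level of the 10 genes, 43.5 TPM, became 56.1 TPM when rescaled over protein-coding genes without mitochondrial and ribosomal protein genes and 16.5 TPM with principal transcripts alone. The number of genes that differed between libraries, 5238, was 1895 with the older counts and 1903 to 4875 when each library was left out, the lowest without library 2. For the Kruppel-like factor genes, 7 were called, against 4 with the older counts and 3 to 7 with each library left out. No share of all genes called was computed for the runs that left out a library. The median share of the leading transcript, 79.2%, was 66.0% with posterior mean isoform percent. The activating subgroup's share, 63.4%, was 67.6% with expected counts, 52.7% with the older counts and 85.7% with principal transcripts. The log2 ratio of Klf2 over Klf6 turned to -0.053 with expected counts and no length correction, and that of Klf7 over Klf11 to -0.60 with principal transcripts. Klf2 lost its call with library totals in place of TMM (chi-square adjusted p = 0.197), and Klf3, Klf13, Klf11 and Klf10 lost theirs with the older counts (0.0842, 0.234, 0.123 and 0.186), where Klf4 gained one (0.0215). Klf6 kept its call under every alternative run. The causes of these changes were not tested. Some alternatives also hold fewer libraries or counts, and the part of that was not tested either. A TPM minimum of 5 left 8 genes detected, and posterior mean TPM gave 10. Depth limits Klf12, which had 12 expected counts in all.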

Other observations

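The Sp genes, zinc finger factors that bind the same GC-rich elements as the Kruppel-like factors, were detected in 4 of 9 cases, with a list median of 1.15 TPM over all 9. Sp5, Sp6, Sp7, Sp8 and Sp9 did not reach 1 TPM in every library. Sp3, which can activate or repress, had 115, 120 and 133 TPM, a mean of 123 ± 8.92 (SD, n = 3). Sp2 averaged 69.8 ± 5.32 TPM, Sp4 24.2 ± 1.72 TPM and the broadly active Sp1 13.5 ± 2.63 TPM. The 4 genes lay below Klf2, Klf6, Klf3 and Klf13 in every library. The coactivator genes Ep300, Crebbp and Kat2b, whose products acetylate histones and Kruppel-like factors, averaged 37.5, 33.5 and 28.7 TPM.

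Among nuclear receptors known to control Klf9, the glucocorticoid receptor gene Nr3c1 averaged 143 ± 9.28 TPM and the thyroid hormone receptor gene Thra 5.78 TPM, while Thrb averaged 0.940 TPM. Immediate early genes, a group to which Klf10 and Klf6 are often added, were mostly detected, at 10 of 11. Junb averaged 2883 ± 568 TPM, Jund 1028 ± 221 TPM, Nr4a1 409.7 TPM and Fos 80.8 TPM, against 0.5 TPM for Atf3, which was not detected. In summed TPM this list had its lowest value in library 2, as did the T cell markers. By TPM every one of the 10 Klf genes except Klf4 and Klf12 was also lowest in library 2. The share of all genes lowest in library 2 by TPM was not computed. In TMM-scaled CPM, Klf2 was instead highest in library 2, at 1128 against 1089 in library 1 and 1112 in library 3. All protein-coding genes together were lowest in library 2, at 852650 TPM against 883307 in library 1 and 882853 in library 3. Some lists, such as the coactivators, were highest in library 2, and the reason was not tested.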
